A study of Oryza sativa Japonica Group with 30 samples.

Results

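Broad SNAC1 ChIP intervals are the widest stretches of rice DNA recovered with an antibody against SNAC1. They were chosen by width alone, as the intervals of at least 3000 bp in the deposited table that sets ZH11-D beside SNAC1-N, and 873 of its 21263 intervals (4.11%) met the limit. The other 20390 are called narrower intervals here. The rule read the width and no signal column. The widths themselves come from peaks called on these same libraries, so width and signal are not independent.

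Shoots of rice seedlings at the 4-leaf stage were used for chromatin immunoprecipitation with a rabbit polyclonal anti-SNAC1 antibody, followed by sequencing (ChIP-Seq). ZH11-D is Zhonghua 11 (ZH11), the wild-type variety and transformation receptor, after water was withheld. SNAC1-N is OE-19, a single transgenic line of ZH11 that carries SNAC1 behind the maize ubiquitin promoter, grown with normal watering, and ZH11-N is ZH11 with normal watering. Each group had 3 immunoprecipitated libraries from independent replicates. ZH11-D and SNAC1-N differ in both genotype and watering, and in this comparison the effects of the transgene and of drought cannot be told apart. OE-19 under drought was not assayed by ChIP-Seq. In whole shoots or leaves, a change in the mixture of cells and a change in bound DNA per cell cannot be told apart either.

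SNAC1 is a stress-responsive NAC transcription factor of rice. NAC proteins bind DNA through a conserved amino-terminal domain and recognise promoter elements with a CACG core, and many members of the family act in responses to drought, salt and abscisic acid. A ChIP interval is a stretch where immunoprecipitated fragments pile up, and a consensus set joins overlapping peaks of several libraries, so a wide interval can hold a single wide peak or several neighbouring ones.

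The signal of an interval is a whole read count of at least 1, scaled by 1 factor per library. The counts over all intervals summed to between 1179245 (SNAC1-N replicate 2) and 5422546 (ZH11-D replicate 2), and the median interval held 31 to 156 counts. RNA for the RNA-Seq libraries came from leaves. The paper's methods name shoot tissue for ChIP, while its results name leaf samples. In the RNA-Seq libraries SNAC1 had 37.2 ± 9.07 FPKM (SD, n = 3) in ZH11-N. Its level was 430 ± 101 FPKM (SD, n = 3) in droughted ZH11 and 847 ± 129 FPKM (SD, n = 3) in OE-19 with normal watering. Droughted OE-19, assayed by RNA-Seq only, had 798 ± 164 FPKM (SD, n = 3). The 5 leaf markers, encoding Rubisco small subunits and light-harvesting proteins, had at least 158 FPKM in every RNA library, and the endosperm glutelins had 1.02 to 3.13. Positions are on the MSU 7.0 build. Genes, promoters and sequences at the intervals were not analysed here.

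The broad intervals had a median width of 3970 bp, with quartiles of 3396 and 4950 bp, against a median of 799 bp for the narrower ones. Of the 873, 427 were at least 4000 bp wide, 213 at least 5000 bp and 14 at least 10000 bp. They covered 3983971 bp, which was 16.9% of the DNA in all intervals. Broad intervals lay on all 12 chromosomes. Chromosome 3 held 166 of them and chromosome 1 held 164. The share of intervals that were broad ranged from 1.90% on chromosome 11 to 5.30% on chromosome 9. Broad intervals also had closer neighbours. The median gap to the nearest interval of any width was 851 bp for broad and 2239 bp for narrower intervals, and another broad interval lay within 10000 bp of 207 broad intervals (23.7%) and of 2532 narrower ones (12.4%).

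The width limit fell in the middle of a continuous range. The narrowest member, chr1:6767585-6770586 (3002 bp), had signals of 172, 248 and 173 in ZH11-D replicates 1, 2 and 3 and of 189.7, 201 and 234 in SNAC1-N. The widest interval outside, chr8:28170907-28173904 (2998 bp), had 151, 318 and 331 in ZH11-D and 304, 201 and 229.7 in SNAC1-N. The values on either side of the limit were of the same order.

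Wider intervals held more signal in total and also more per kilobase. The median signal of a broad interval was 282, 378 and 338 in ZH11-D replicates 1, 2 and 3 and 289.8, 235 and 277 in SNAC1-N, which was 7.15 to 8.93 times the median of the narrower intervals of the same library. Per kilobase, the broad medians were 68.9, 91.5 and 79.9 in ZH11-D, against 42.7, 68.2 and 49.2 for narrower intervals. In SNAC1-N they were 71.1, 56.9 and 68.2 against 51.6, 36.9 and 49.9. Signal per kilobase was thus higher in broad intervals in 6 of 6 libraries, by 1.48 ± 0.129 times (SD, n = 6 libraries, range 1.34 to 1.62). By group the ratio was 1.53 ± 0.160 in ZH11-D and 1.43 ± 0.0972 in SNAC1-N (SD, n = 3 each), a difference within the spread between replicates.

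**Figure D1:**
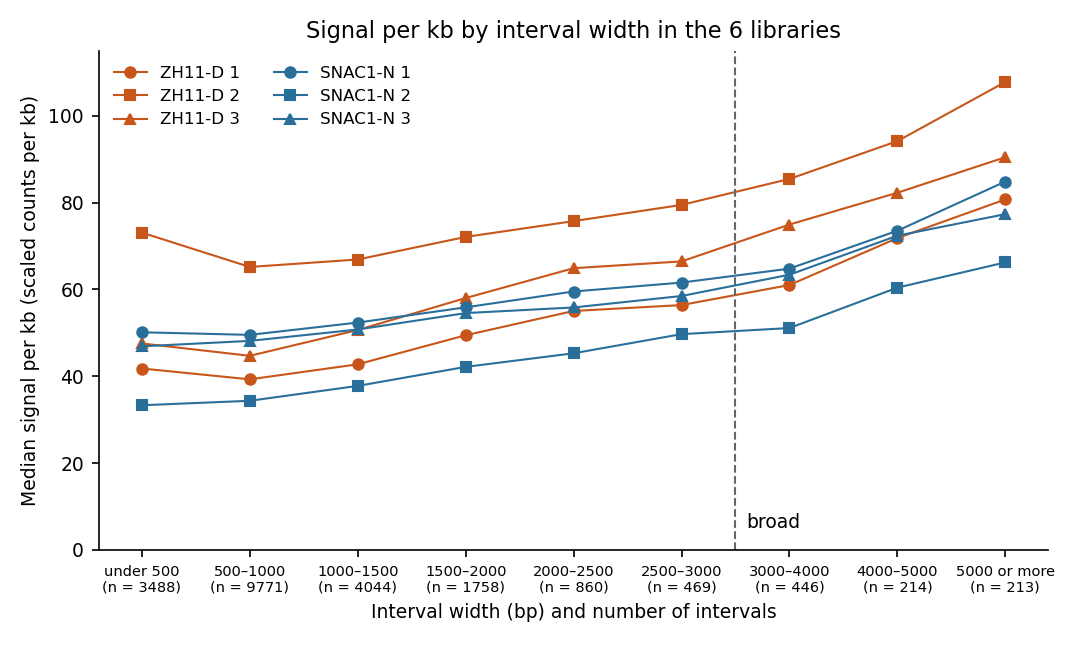
Median signal per kb (scaled counts per kb) against interval width class for each of the 6 libraries, with the number of intervals under each class; points are medians over intervals and the dashed line marks 3000 bp. Signal per kb rises through the broad classes in every library, in ZH11-D replicate 1 from 39.3 at 500 to 1000 bp to 80.7 at 5000 bp or more.

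Above 500 bp the rise with width had begun below the limit of 3000 bp. In classes that each include their lower and exclude their upper limit, median signal per kilobase in ZH11-D replicate 2 was 65.2 at 500 to 1000 bp, 75.8 at 2000 to 2500 bp, 85.5 at 3000 to 4000 bp and 108 at 5000 bp or more. In SNAC1-N replicate 2, the library with the fewest counts, the same classes had 34.4, 45.3, 51.1 and 66.2. The narrowest class went the other way in ZH11-D, where intervals under 500 bp had 41.8, 73.1 and 47.6, above the 39.3, 65.2 and 44.7 at 500 to 1000 bp. SNAC1-N replicate 1 did so slightly, with 50.1 against 49.5, and SNAC1-N replicates 2 and 3 did not. The broad intervals were a part of the gradient above 500 bp, as the plot of signal per kb by width class shows, with no step at the limit itself in these medians.

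Signal in broad intervals was seldom at the lowest value of a library, which is a count of 1. Of the 873, 847 (97.0%) were above it in all 6 libraries, against 16016 (78.5%) of the narrower intervals. Of the 26 others, 15 were at the lowest value only in ZH11-D replicate 1. In contrast, 3 broad intervals were at a count of 1 in all 6 libraries. They were chr12:20696233-20705607 (9375 bp), chr9:18534871-18538801 (3931 bp) and chr9:18524302-18527472 (3171 bp). A neighbour of the first, chr12:20691677-20695885 (4209 bp), was at the lowest value in 5 libraries and had a signal of 1.04 in ZH11-D replicate 2. These intervals are listed as peaks although their deposited counts are the minimum.

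Replicates ranked the broad intervals more alike than the narrower ones. Across the 873 intervals, Spearman's rho was 0.863 to 0.903 between pairs of ZH11-D libraries and 0.833 to 0.917 between pairs of SNAC1-N libraries. Between libraries of the 2 groups it was 0.535 to 0.679 (9 pairs). Over the 20390 narrower intervals the corresponding ranges were 0.744 to 0.768, 0.667 to 0.75 and 0.458 to 0.708. These correlations are across intervals, which are not independent replicates, and width and read depth enter both libraries of a pair. The SD of the log2 signal among replicates also fell with width. Its median was 0.25 in ZH11-D and 0.29 in SNAC1-N for broad intervals, and 0.55 and 0.59 for narrower ones.

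To see whether SNAC1-bound DNA at the broad intervals differed between ZH11-D and SNAC1-N, limma was fitted to the log2 signal of all 21263 intervals. At an adjusted p-value under 0.05, 106 broad intervals (12.1%) were called, while 3.06% of all intervals were. ZH11-D was the higher group at 103 of them (11.8% of broad intervals, against 2.89% of all) and SNAC1-N at 3 (0.344%, against 0.174%). Of the 103, 77 had a log2FC (ZH11-D against SNAC1-N) of 1 to 2, 19 of 2 to 3, 4 of at least 3 and 3 under 1, with a median of 1.54. The balance between the directions moved with the scaling and the test, with ZH11-D the more frequent direction under each. When each library was divided by its median ratio, ZH11-D was higher at 66 broad intervals (7.56%, against 1.55% of all). SNAC1-N was higher at 14 (1.6%, against 0.536%). After quantile normalization the numbers were 112 (12.8%, against 2.89%) and 39 (4.47%, against 1.45%). With DESeq2, which also changes the model, they were 170 (19.5%, against 8.25%) and 94 (10.8%, against 5.29%).

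The count of calls also rested on single libraries. It was 47 without ZH11-D replicate 1 (5.38% of broad intervals, against 0.682% of all). Without ZH11-D replicate 2 it was 47 (5.38%, against 0.983%), and without ZH11-D replicate 3 it was 8 (0.916%, against 0.0988%). Without SNAC1-N replicate 1 it was 153 (17.5% of broad intervals, against 4.59% of all). Without SNAC1-N replicate 2 it was 63 (7.22%, against 1.74%), and without SNAC1-N replicate 3 it was 54 (6.19%, against 1.37%). The median log2FC was 0.30 over the broad intervals and 0.19 over all intervals, and dividing by the median ratio moved both down by the same amount, the latter to -0.04. Relative to all intervals the broad ones were thus 0.11 higher in ZH11-D on the log2 scale. This difference was 0.057 after quantile normalization, 0.030 without ZH11-D replicate 1, 0.19 without ZH11-D replicate 2, 0.022 without ZH11-D replicate 3 and 0.18 without SNAC1-N replicate 2.

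**Figure D2:**
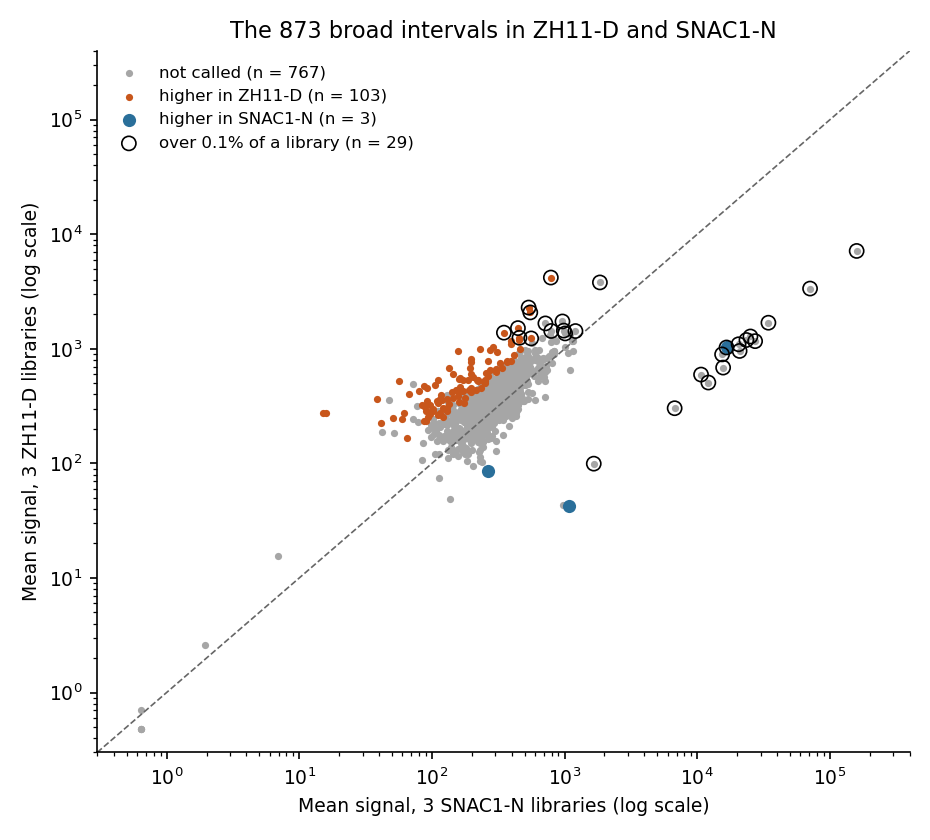
Mean signal of each of the 873 broad intervals in the 3 ZH11-D libraries (vertical) against the 3 SNAC1-N libraries (horizontal), both on log scales, with limma calls in colour and circles around the 29 intervals that held over 0.1% of a library's summed signal. The 103 intervals higher in ZH11-D lie above the line of equal signal along the main cloud, and 15 circled intervals lie far to its right.

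The share called rose with width up to the class of 2000 to 2500 bp and then went up and down. It was 0.602% under 500 bp, 3.66% at 1000 to 1500 bp, 10.8% at 2000 to 2500 bp and 9.81% at 2500 to 3000 bp. Among broad intervals it was 13.7% at 3000 to 4000 bp, 11.7% at 4000 to 5000 bp and 9.39% at 5000 bp or more. The median standard error of the log2FC moved with width as well, from 1.09 under 500 bp through 0.29 at 2000 to 2500 bp to 0.25 at 3000 to 4000 bp. It then stayed level, at 0.25 at 4000 to 5000 bp and 0.26 at 5000 bp or more. Its part in the share called was not tested. All 3 ZH11-D libraries lay above all 3 SNAC1-N libraries at 344 broad intervals (39.4%), and at 21% of all intervals. The reverse held at 59 broad intervals (6.76%) and at 5.54% of all intervals.

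**Figure D3:**
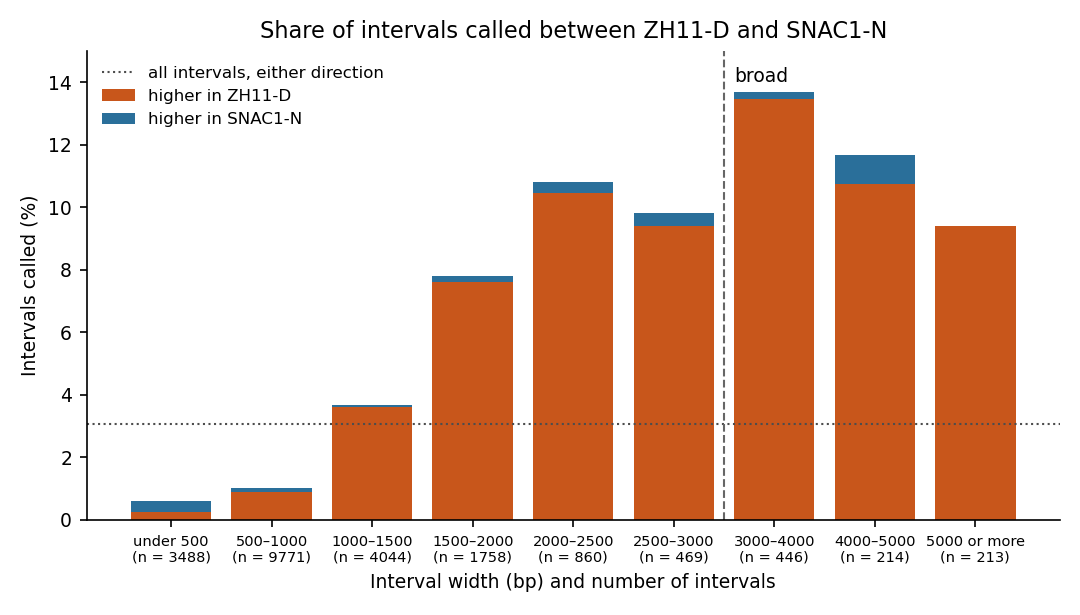
Percentage of intervals called by limma (adjusted p-value under 0.05) in each width class, split by direction, with the dotted line at the 3.06% of all intervals and the dashed line at 3000 bp. The share is 0.602% in the narrowest class and 9.39% to 13.7% in the 3 broad classes, nearly all of it higher in ZH11-D.

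The 103 broad intervals higher in ZH11-D differed from the other members in both groups of libraries. Their median signal per kilobase was 101, 122 and 124 in ZH11-D replicates 1, 2 and 3, and 43.5, 34.0 and 40.8 in SNAC1-N. The 767 members not called had 65.2, 88.9 and 77.2 in ZH11-D and 73.9, 59.1 and 71.1 in SNAC1-N. These values come from the signal that made the calls and are given as a description. The 103 were on all 12 chromosomes, from 10.1% of the broad intervals of chromosome 4 and 9.09% on chromosome 6 to 17.2% on chromosome 9 and 22.0% (9 of 41) on chromosome 8. Their widths ran from 3016 to 13578 bp, with a median of 3814 bp.

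The smallest p-value among them belonged to chr2:336275-339639 (3365 bp). Its signal was 400.3, 458 and 423 in ZH11-D and 81.0, 74 and 83.5 in SNAC1-N. The groups were far apart and the replicates close (log2FC = 2.43, SE = 0.20, limma adjusted p = 0.00319). On chromosome 8, chr8:21050279-21055684 (5406 bp) had 795, 804 and 835 in ZH11-D and 187, 158 and 243 in SNAC1-N (log2FC = 2.07, SE = 0.23, limma adjusted p = 0.00536). A second interval of that chromosome, chr8:3646547-3650295 (3749 bp), had 373, 375 and 471 in ZH11-D and 94.4, 41 and 66.1 in SNAC1-N, so that the lowest ZH11-D value was well above the highest of SNAC1-N (log2FC = 2.67, SE = 0.30, limma adjusted p = 0.00567). The third, chr8:6167500-6171272 (3773 bp), had 558, 649 and 620.3 in ZH11-D against 185, 154 and 92.5 in SNAC1-N.

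A pair of called intervals lay close together on chromosome 1. The first, chr1:32393498-32396861 (3364 bp), had 568, 625 and 406 in ZH11-D and 149.9, 108 and 74.6 in SNAC1-N. The second, chr1:32413232-32417360 (4129 bp), had 480.0, 560.1 and 407 in ZH11-D and 138, 72 and 109 in SNAC1-N. In both, ZH11-D replicate 3 was the lowest of its group and still above every SNAC1-N library. On chromosome 5, chr5:1750608-1754044 (3437 bp) had 401, 451 and 568 against 112, 53 and 96.5, and chr5:2217572-2222675 (5104 bp) had 696, 801 and 803 against 259.9, 144 and 185. The widest of the 10 with the smallest p-values was chr9:12740008-12749882 (9875 bp), with 1299, 1408 and 1447 in ZH11-D and 406, 305 and 336 in SNAC1-N (log2FC = 2.00, SE = 0.25, limma adjusted p = 0.00849). The remaining one, chr12:14493713-14496939 (3227 bp), had 360.4, 377 and 365 against 42.0, 49 and 24.9, the largest ratio of the 10 (log2FC = 3.31, SE = 0.28). In SNAC1-N these 10 intervals were low but above a count of 1 in every library.

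**Figure D4:**
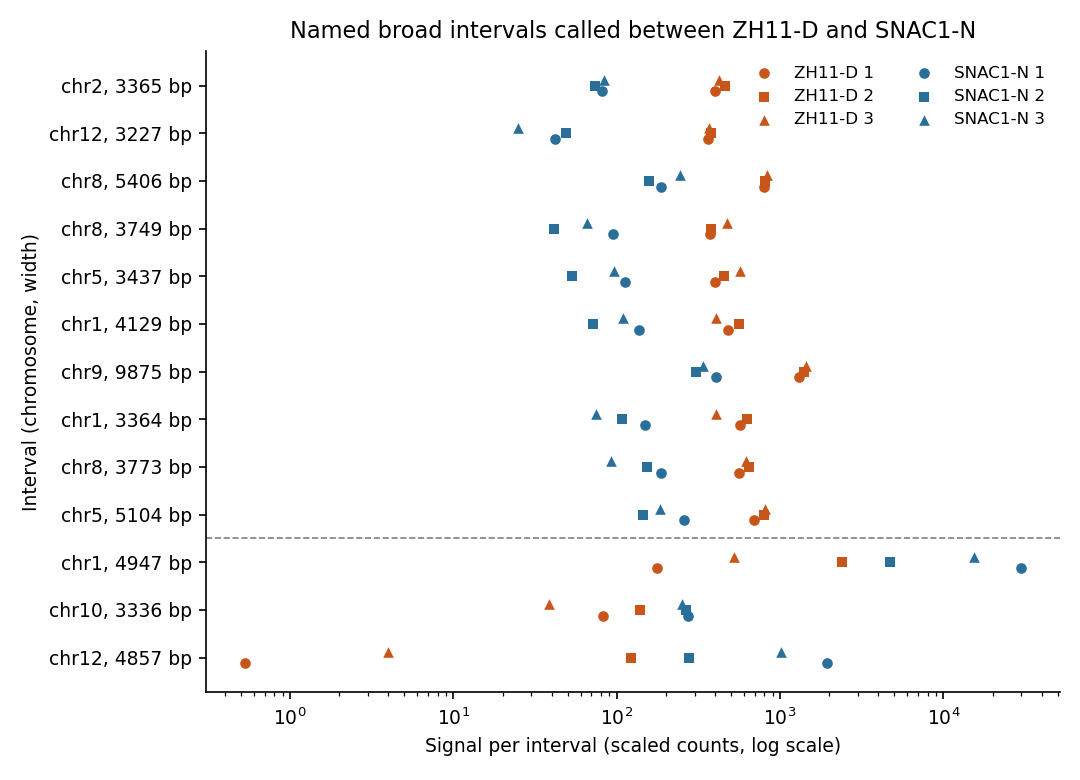
Signal per interval (scaled counts, log scale) in the 6 libraries for the 10 broad intervals with the smallest p-values higher in ZH11-D (above the dashed line) and the 3 higher in SNAC1-N (below it), named by chromosome and width. In each of the 13 intervals the 3 libraries of one group lie wholly to one side of the other, which the choice of these intervals required. The spread is widest at the interval of 4857 bp on chromosome 12, from 0.53 to 1949.5.

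Only 2 of the 103 had a SNAC1-N library at the lowest value, and they gave the largest log2FC. At chr8:11321433-11324614 (3182 bp) ZH11-D had 198, 277 and 355 and SNAC1-N had 44.2, 1 and 0.50 (log2FC = 6.58, SE = 1.40). At chr2:2079889-2082951 (3063 bp) ZH11-D had 238, 259 and 321 and SNAC1-N had 14.3, 33 and 0.50 (log2FC = 5.45, SE = 1.23). Both values depend on counts of 1. Over the other 101 the log2FC was 0.96 to 3.52.

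There were 3 broad intervals called higher in SNAC1-N. At chr10:20804343-20807678 (3336 bp) the signal was 81.9, 139 and 38.4 in ZH11-D and 272, 266 and 249.6 in SNAC1-N, so that the SNAC1-N libraries were close together and ZH11-D was scattered below them (log2FC = -1.79, SE = 0.39, limma adjusted p = 0.0413). At chr1:33582549-33587495 (4947 bp) it was 177, 2382 and 525 in ZH11-D and 29861, 4686 and 15339 in SNAC1-N (log2FC = -4.41, SE = 0.96, limma adjusted p = 0.0402). At chr12:20459922-20464778 (4857 bp) it was 0.53, 123 and 3.95 in ZH11-D and 1949.5, 278 and 1014 in SNAC1-N (log2FC = -7.01, SE = 1.54, limma adjusted p = 0.0416), where ZH11-D replicate 1 was at a count of 1. In the latter 2, replicate 1 was the highest and replicate 2 the lowest SNAC1-N library. The calls depended on the settings. The first was called in 8 of 13 alternatives and lost when any single SNAC1-N library was left out, as it was without ZH11-D replicate 1 or 3. The interval on chromosome 1 was called in 6 of 12. It was lost with edgeR (adjusted p = 0.0752), with quantile normalization (limma adjusted p = 0.0967) and with a block for replicates. Leaving out SNAC1-N replicate 3, ZH11-D replicate 1 or ZH11-D replicate 3 also lost it. The interval on chromosome 12 was called in 7 of 13. It was lost with edgeR (adjusted p = 0.0604), without any single SNAC1-N library, and without ZH11-D replicate 1 or 3.

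Signals as high as 29861 in SNAC1-N, as at chr1:33582549-33587495, were not limited to that interval. Of the 873 broad intervals, 29 each held over 0.1% of the summed signal of a library, as did 19 of the 20390 narrower ones. In 15 of the 29 the highest value was in SNAC1-N. They covered 198654 bp and held 35.3%, 10.9% and 24.2% of the summed signal of SNAC1-N replicates 1, 2 and 3, against 0.0145%, 3.15% and 0.442% in ZH11-D. All broad intervals together held 47.8%, 30.1% and 39.4% of the signal in SNAC1-N and 24.4%, 23.8% and 24.2% in ZH11-D. Leaving out the 48 intervals over 0.1% made these shares 19.9%, 21.1% and 20.1% in SNAC1-N and 22.8%, 20.3% and 22.4% in ZH11-D, so that the groups overlapped.

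The 15 lay in 5 places. There were 5 in chr12:20497856-20674454, 3 in chr1:33516397-33587495, 3 in chr9:4691186-4732471, 2 in chr4:32883388-32892499 and 2 in chr12:8529869-8545473. The widest interval of the table was one of them, chr12:20497856-20549165 (51310 bp), with signals of 0.53, 19389 and 2074 in ZH11-D and 282673, 44837 and 150037 in SNAC1-N. The next, chr12:20602934-20646580 (43647 bp), had 0.53, 8886 and 1191 in ZH11-D and 127340.0, 20101 and 65238 in SNAC1-N. Both were at the lowest value in ZH11-D replicate 1 and at 20101 or more in every SNAC1-N library. Per kilobase the highest mean over the 6 libraries was at chr1:33534786-33539574 (4789 bp), with 0.53, 2721 and 568 in ZH11-D and 36143, 5609 and 19774 in SNAC1-N.

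Libraries of 1 group differed from each other at these places by nearly fixed factors. Over the 15 intervals the ratio of SNAC1-N replicate 1 to replicate 2 had a median of 6.37 (5.93 to 7.57), and that of replicate 3 to replicate 2 a median of 3.39 (3.15 to 3.84). Over the 844 broad intervals not over 0.1% the medians were 1.27 and 1.20. ZH11-D replicate 2 followed the same profile at a lower level, with SNAC1-N replicate 1 at 11.8 to 14.7 times its signal. A count of 1 was found at 14 of the 15 in ZH11-D replicate 1. In the separate table of SNAC1-N and ZH11-N, which keeps the same scale for SNAC1-N, the interval chr12:20497856-20549165 had 3336, 63458 and 19408 in ZH11-N, so that ZH11-N replicate 2 exceeded SNAC1-N replicate 2.

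Limma left most of the 15 without a call, and the part of the spread between libraries in this was not tested. DESeq2 called more of them, though not the widest (DESeq2 adjusted p = 0.138). The 15 were picked for a highest value in SNAC1-N, and of them limma called only chr1:33582549-33587495. The log2FC ran from -11.02 to -4.41, with standard errors of 0.96 to 3.02 and limma adjusted p-values of 0.0402 to 0.155. What these stretches hold was not analysed here, since no annotation of their build was used. The input libraries were not analysed either, and the part of input subtraction in these values was not tested.

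**Figure D5:**
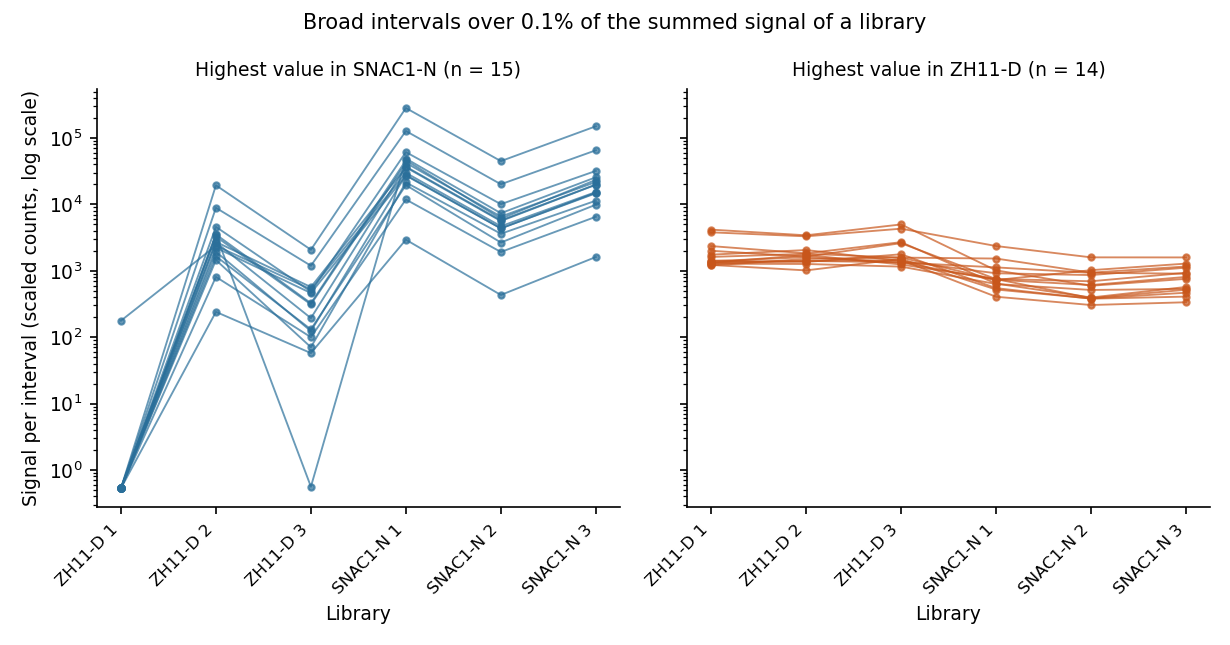
Signal per interval (scaled counts, log scale) across the 6 libraries for the 29 broad intervals that held over 0.1% of a library's summed signal, with 1 line per interval, 15 highest in SNAC1-N (left) and 14 highest in ZH11-D (right). On the left the lines run nearly parallel and 14 of 15 start at 0.53 in ZH11-D replicate 1, while on the right every value lies between 305 and 4987.

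The other 14 of the 29 had their highest value in ZH11-D, and the libraries of a group were alike. They lay on 8 chromosomes, and 7 of them were called, where 12.1% of broad intervals and 3.06% of all intervals were. Their choice by a highest value in ZH11-D largely sets that direction, and the count is a description. Of the 14, 3 are named here after their values were seen. The highest was chr7:26298563-26305129 (6567 bp), with 4165, 3421 and 4987 in ZH11-D and 1014, 595 and 756 in SNAC1-N (log2FC = 2.43, SE = 0.40, limma adjusted p = 0.0179). Next was chr5:24321245-24330515 (9271 bp), with 3793, 3303 and 4302 in ZH11-D and 2359, 1593 and 1589 in SNAC1-N (log2FC = 1.06, SE = 0.48, limma adjusted p = 0.27), which was not called although the groups were apart. The densest of them was chr4:19441337-19444633 (3297 bp), with 2354, 1830.3 and 2696 in ZH11-D and 641, 396 and 570.3 in SNAC1-N (log2FC = 2.11, SE = 0.33, limma adjusted p = 0.0142).

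Among the 10 widest intervals, 5 were on chromosome 12 between 20473958 and 20674454 and had the profile described above. The other 5 had no library at the lowest value. The widest of these, chr1:33638658-33652235 (13578 bp), had 894, 1160.4 and 1077 in ZH11-D and 404, 205 and 253 in SNAC1-N (log2FC = 1.91, SE = 0.29, limma adjusted p = 0.0133). At chr1:29960586-29973435 (12850 bp) the values were 1039, 1276 and 1287 against 522, 340.0 and 509 (log2FC = 1.41, SE = 0.27, limma adjusted p = 0.0287). The former was called in 12 of 13 alternatives, and the latter in 5 of 13. The latter was lost with edgeR (adjusted p = 0.0575), with median ratio scaling (limma adjusted p = 0.0551) and with a block for replicates. Leaving out any single ZH11-D library, or SNAC1-N replicate 2 or 3, also lost it. Signals of 1616, 1802 and 1584 against 732, 610.0 and 809 were found at chr3:3269522-3282279 (12758 bp), where the groups were apart and the limma adjusted p was 0.0531. No difference was called at chr4:30438306-30450506 (12201 bp), with 821, 1183 and 852 in ZH11-D and 719, 841 and 940.3 in SNAC1-N (log2FC = 0.18, SE = 0.28), or at chr1:29558016-29570010 (11995 bp), with 1342, 1406 and 1343 against 725, 1021 and 1282 (log2FC = 0.47, SE = 0.33). At the former the groups overlapped.

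The other 2 deposited tables show which of the broad intervals were also wide in consensus sets of other pairs of conditions. Of the 873, 870 (99.7%) overlapped an interval of the ZH11-D and ZH11-N table by at least 1 bp, and 809 (92.7%) a broad one. In the SNAC1-N and ZH11-N table, which holds no ZH11-D library, 856 (98.1%) overlapped an interval but only 609 (69.8%) a broad one, and 224 were split over more than 1 interval. Of narrower intervals 86.6% and 65.8% were matched. Counted from the other side, 808 of the 1148 broad intervals of ZH11-D and ZH11-N (70.4%) and 605 of the 912 of SNAC1-N and ZH11-N (66.3%) overlapped one of the 873. There were 567 broad in both other tables and 22 in neither. The tables share libraries and their interval sets are not independent.

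The 103 intervals called higher in ZH11-D were often narrower in the table without ZH11-D. All 103 had a broad match in the ZH11-D and ZH11-N table. In the table of SNAC1-N and ZH11-N, a match was found for 92 of them and a broad match for 28, and the matching interval with the largest overlap had a median width of 2090 bp. For the 767 not called, 761 had a match there and 578 a broad one, with a median width of 3996 bp. The widest of the called intervals, chr1:33638658-33652235 (13578 bp), was in 6 pieces in that table. These counts are a description, since the calls and the intervals come from some of the same libraries.

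Drought and normal watering within ZH11 were compared in their own table, where 1148 of 21162 intervals were broad. Limma called 11 broad intervals (0.958%), all higher in ZH11-D, against 0.194% of all intervals called in that table. The count was 0, with 0% of all intervals, without ZH11-D replicate 1, without ZH11-D replicate 3 and without ZH11-N replicate 1. It was 1 without ZH11-D replicate 2 (0.0871% of broad intervals, against 0.00473% of all), and that call was higher in ZH11-N. It was 20 without ZH11-N replicate 2 (1.74%, against 0.392%) and 75 without ZH11-N replicate 3 (6.53%, against 1.87%). Median ratio scaling gave 13 with ZH11-D higher (1.13% of broad intervals, against 0.175% of all) and 15 with ZH11-N higher (1.31%, against 0.137%). Quantile normalization gave 75 (6.53%, against 1.18%) and 43 (3.75%, against 0.468%). Median ratio scaling moved the median log2FC of all intervals from 0.53 to 0.03 and that of the broad ones from 0.24 to -0.27. The median of the broad intervals minus that of all intervals was -0.29, which such scaling cannot change, -0.072 after quantile normalization and -0.13 without ZH11-N replicate 2. All 3 ZH11-D libraries were above all 3 ZH11-N libraries at 326 broad intervals, 28.4% against 23% of all intervals. The reverse held at 44 broad intervals (3.83%) and at 2.36% of all intervals.

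The 11 called intervals were each broad in the ZH11-D and SNAC1-N table too, and 8 were called in it, where 3.06% of all intervals were. Both comparisons use the same ZH11-D libraries, so the 8 are a description and not independent support. The smallest p-value was at chr5:1750608-1754044, already described, which had 708, 796 and 1001 in ZH11-D and 86.9, 105 and 186 in ZH11-N (log2FC = 2.79, SE = 0.32, limma adjusted p = 0.0399). At chr8:21050279-21055684 the values were 1401, 1418 and 1472 against 240.2, 220.0 and 407 (log2FC = 2.36, SE = 0.30). The interval chr9:12740008-12749882 had 2289, 2482 and 2551 against 518, 352 and 657 (log2FC = 2.31, SE = 0.33). A further interval, chr2:16700830-16705112 (4283 bp), was named for having the largest log2FC of the 11, with 428, 722 and 745 in ZH11-D and 14.95, 37 and 92.9 in ZH11-N (log2FC = 4.04, SE = 0.57). In the ZH11-D and SNAC1-N table it had 243, 409 and 423 against 105, 1 and 37.3 (log2FC = 4.46, SE = 1.31, limma adjusted p = 0.0989), and a count of 1 in SNAC1-N replicate 2 went with the larger standard error. At the widest of the 11, chr1:33638658-33652235, ZH11-N had 399, 310.0 and 578 beside 1576, 2046 and 1899 in ZH11-D (log2FC = 2.14, SE = 0.32).

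Side by side, the 103 intervals higher in ZH11-D than in SNAC1-N had a median log2FC of 1.42 against ZH11-N in the other table. The 2 comparisons share the ZH11-D libraries and are not independent. The 767 not called, of which 764 had a match there, had a median of 0.29.

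OE-19 and ZH11 with normal watering were compared in the third table, where 912 of 16886 intervals were broad. Limma called 0 of them at an adjusted p-value under 0.05, and 0% of all intervals. An unadjusted limma p-value under 0.05 was found at 12 broad intervals (1.32%), against 3.39% of all intervals. edgeR on the counts also called 0 broad intervals and 0% of all, with 43 broad intervals (4.71%) at an unadjusted p-value under 0.05, against 3.83% of all intervals. DESeq2 called 4 broad intervals (0.439%), against 0.119% of all intervals. The libraries of the groups did not overlap at 21 broad intervals (2.3%) with SNAC1-N higher and at 8 (0.877%) with ZH11-N higher, where all intervals had 8.61% and 1.84%. Over the 856 intervals of the 873 with a match in this table the median log2FC (SNAC1-N against ZH11-N) was 0.06, with quartiles of -0.11 and 0.24. The median was 0.26 over all intervals of this table and 0.018 over its 912 broad ones. Median ratio scaling moved these to 0.03 and -0.21. The broad median minus that of all intervals was -0.24, and -0.049 after quantile normalization. SNAC1 transcripts did not overlap between these groups, at 764 FPKM or more in the SNAC1-N libraries and at most 44.8 FPKM in those of ZH11-N.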

How the data were processed

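ChIP-Seq libraries of ZH11-D, SNAC1-N and ZH11-N (3 each) and 12 RNA-Seq libraries were used, grouped by their labels. The authors mapped ChIP-Seq reads to MSU 7.0 with Bowtie2 and called peaks with MACS2. DiffBind is also in the submitters' processing notes. They deposited 3 tables of consensus intervals, one per pair of conditions, whose signal is a whole count of at least 1 divided by 1 factor per library. One library per table has a factor of 1, and its deposited values are counts. Input reads may have been subtracted from them. RNA levels are FPKM values that the authors deposited. For ZH11-D and SNAC1-N, 99.8% to 100% of the values lay within 0.005 of a whole multiple of the factor. ZH11-D replicate 3 in the table with ZH11-N, at 99.4%, was not treated as recovered. The authors' own fold, p-value and FDR columns were not used, and 0 of the columns that hold a library's signal or FPKM were left out.

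Broad intervals are those of at least 3000 bp. The members and lists were chosen with earlier results of these data known. limma 3.58.1 (R 4.3.3; moderated test with a trend, two-sided, no filter, no pseudocount) was fitted to the log2 signal of all intervals of a table, with no block for replicates. Benjamini-Hochberg adjusted p-values were called at 0.05. Alternatives were median ratio scaling, quantile normalization, edgeR 4.0.16 and DESeq2 1.42.0 on the recovered counts, a filter on lowest values, a replicate block, other width limits, and leaving out intervals over 0.1% of a library or single libraries. The fits were tested on simulated data. Summed counts of 1109002 to 5494104 per library and table limit the precision of low values. The limma p-values rest on the spread between the deposited replicates, drawn towards a trend of variance on signal over all intervals of a table. The standard error of an interval can therefore differ from its own replicate spread, also at intervals of high signal.

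Named intervals are the 10 widest, the 10 with the highest mean signal per kb, up to 10 per direction with the smallest limma p among those called whose groups do not overlap, and those beside the width limit. Others were chosen after their values were seen. Genes and sequences at the intervals were not analysed, because no MSU 7.0 genome or annotation was used.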

Additional observations from a re-analysis of the deposited data

How the results depend on the processing

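For ZH11-D against SNAC1-N, 106 broad intervals were called, with 3.06% of all intervals. They became 264 with DESeq2 (105 of the 106 among them, 13.5% of all intervals called) and 76 with edgeR (67 among them, 2.38% of all). Another width limit leaves the 3.06% of all unchanged. At 2000 bp 245 of 2202 were called, and at 5000 bp 20 of 213. Leaving out 1 library gave 8 to 153 (0.0988% to 4.59% of all). For ZH11-D against ZH11-N, the 11 (0.194% of all) became 28 with median ratio scaling (0.312%) and 118 with quantile normalization (1.64%). Beside the same 0.194% of all, 21 of 2588 were called at 2000 bp and 3 of 334 at 5000 bp. Without 1 library the count was 0 to 75 (0% to 1.87% of all). For SNAC1-N against ZH11-N, the 0 became 4 with DESeq2 (0.119% of all). Signal per kb of broad over narrower intervals was 1.34 times at 2000 bp and 1.70 times at 5000 bp. The log2FC of chr4:30438306-30450506, which was not called, turned from 0.18 to -0.053 with median ratio scaling, -0.050 with edgeR and -0.079 with DESeq2. The causes of these shifts were not tested. None of the other intervals named as widest, highest per kb or called by the rule changed direction under an alternative. Same-numbered libraries deviated from their group means with correlations of -0.073 to 0.0582. For SNAC1-N against ZH11-N the same-numbered pairs had 0.0498 to 0.0582 and the others -0.049 to 0.0117. These values are small and do not settle whether the numbers pair the libraries. The replicate block gave 70 broad calls for ZH11-D against SNAC1-N (8.02%, against 1.56% of all intervals). For ZH11-D against ZH11-N it gave 104 (9.06%, against 2.56%). Count tests of ZH11-D against ZH11-N were not run, since whole counts of ZH11-D replicate 3 could not be recovered at the precision of the file. The planned test of transcripts at broad intervals was not run for lack of an annotation. Depth limits intervals with few counts, and few broad intervals are among them.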

Other observations

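The 19 narrower intervals that held over 0.1% of a library's summed signal had the same profile across libraries as the 15 broad ones described above. All 19 were highest in SNAC1-N and none in ZH11-D. SNAC1-N replicate 1 had a median of 6.84 times the signal of replicate 2 (5.84 to 9.51), and 16 of the 19 were at a count of 1 in ZH11-D replicate 1. They covered 25674 bp on 6 chromosomes and held 4.12%, 1.18% and 2.85% of the summed signal of SNAC1-N replicates 1, 2 and 3. Whether they share an origin with the broad ones was not tested.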
